A study of Mus musculus with 2 samples.

Results

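The genes described here are 10 regulators of the G1 phase of the cell cycle. They are the D-type cyclin genes Ccnd1, Ccnd2 and Ccnd3, the cyclin E gene Ccne1, the kinase genes Cdk4 and Cdk6, the inhibitor genes Cdkn2a, Cdkn2c and Cdkn1b, and the retinoblastoma gene Rb1. They were chosen by name, and every gene probe that the array files assign to them was used. This gave 16 of the 55681 gene probes. Transcript levels were measured by hybridising Cy3-labelled RNA to Agilent whole-genome arrays, with 1 array per genotype. The CSE-WT array, the control, carried RNA of wild-type C57BL/6J mice, and the CSE-KO array RNA of mice with a knockout of CSE. CSE is cystathionine gamma-lyase, an enzyme that makes hydrogen sulfide. Both groups were 6 months old, both were on a high-fat diet, and both samples were labelled as beta cells. The number of animals per sample, the cells in which CSE was lost and the way the cells were isolated are not given in the sources used here.

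Cyclins of the D type bind and activate the kinases CDK4 and CDK6, which phosphorylate the retinoblastoma protein. Phosphorylation releases E2F transcription factors, which switch on cyclin E and the genes of DNA replication. Inhibitors of the INK4 family, among them the products of Cdkn2a and Cdkn2c, bind CDK4 and CDK6, whereas the CIP/KIP inhibitor p27, encoded by Cdkn1b, binds cyclin and kinase together. In mouse beta cells, cyclin D2 and CDK4 are known to be needed for the growth of beta-cell mass after birth, and Cdkn2a is known to accumulate with age.

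The probes are 60-base oligonucleotides. Sequences from the array files are shown for a D-type cyclin, its kinase and the cyclin that acts next, so that a reader can see what was hybridised. They are the only Ccnd2 probe, the dimmest of the 3 Cdk4 probes and the dimmer of the pair for Ccne1. Each has a reading frame without a stop codon over the whole oligonucleotide, but whether the probes lie in coding sequence was not determined.
Ccnd2: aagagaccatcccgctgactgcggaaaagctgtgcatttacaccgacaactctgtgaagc
Cdk4, dimmest probe: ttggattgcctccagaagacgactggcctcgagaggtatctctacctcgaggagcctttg
Ccne1, dimmer probe: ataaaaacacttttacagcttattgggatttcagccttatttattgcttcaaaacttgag

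No G1 regulator that could be measured differed by 2-fold or more between the 2 arrays. For 9 of the 10 genes at least 1 probe carried the detection flag of the files, well above background, in both samples. These genes count as measured, and the exception was Cdk6. By the measured probe with the highest level, 5 genes were higher in CSE-KO and 4 were lower, and the median difference was 0.12 log2 units. Differences are log2 of the processed signal after subtraction of the 75th percentile of each array, CSE-KO minus CSE-WT. No member reached a 2-fold difference in either direction, against 1.61% of the 22139 measured genes on the array (0.718% higher and 0.89% lower). The largest fold was 1.42, for Cdkn2a, and over the 14 measured probes of these genes the smallest was 1.03. Over all measured genes 48.7% were higher, and the median difference was -0.01. The quartiles of all measured genes were -0.13 and 0.13. By the probe of highest level, Ccnd2, Cdk4, Cdkn2a, Cdkn2c and Rb1 lay outside that range and the other measured members inside it. Since so few genes passed 2-fold at all, its absence among 9 members says little about the size of their differences.

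No difference has a replicate check, since each genotype had a single array, and no test was made. The spread between spots of the same probe on an array was the only error that could be measured, and it says nothing about animals or preparations. A second size rule asked whether a difference exceeded 3 times this spot SD. Cdk4 and Cdkn2a passed it as higher and Rb1 as lower, which is 3 of 9 genes. Rb1 also passed it under each of 6 other scalings and background corrections. With the normexp background correction Cdk4 (1.56 times the spot SD) and Cdkn2a (2.82 times) did not pass, and with cyclic loess scaling Cdkn2a (2.82 times) did not. Of all measured genes 16.6% passed it, 7.78% higher and 8.82% lower. Among measured genes above the median level, where the spot SD is smaller, 22.5% passed, and 7 of the 9 members lay in that range. Of these 7 members, 1 passed as higher and 1 as lower (28.6%). The difference between these shares was not tested.

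**Figure D1:**
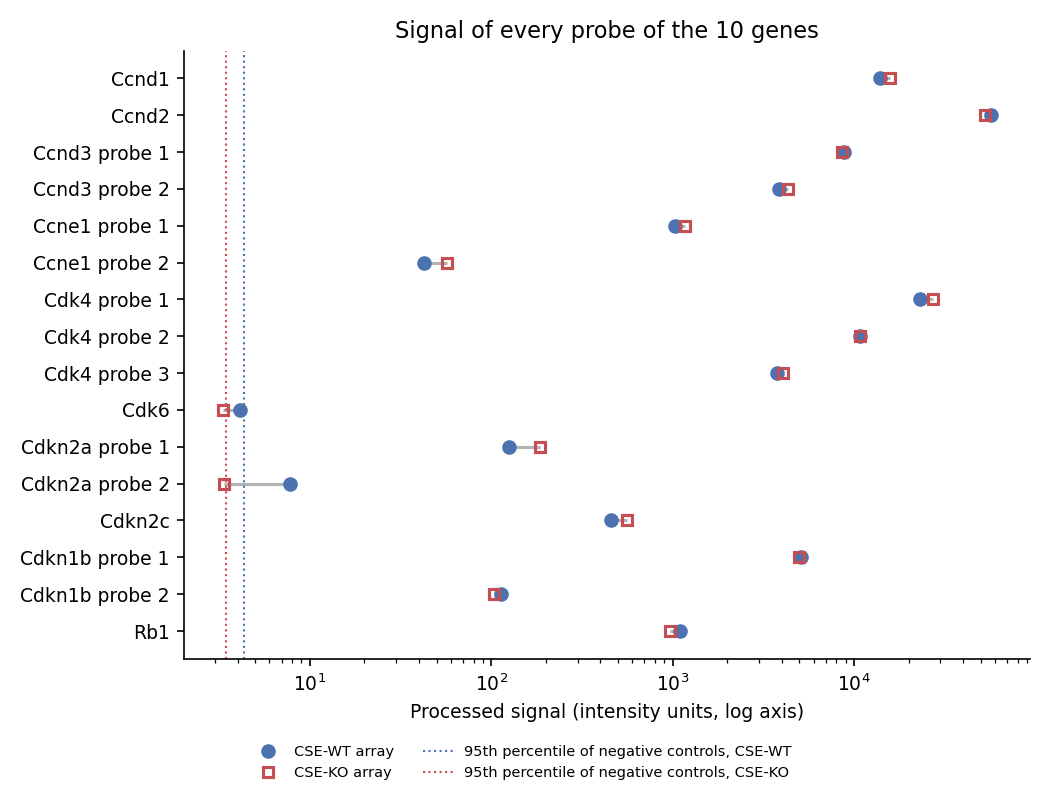
Processed signal in intensity units (log axis) of all 16 probes of the 10 genes, with the CSE-WT array as filled circles and the CSE-KO array as open squares. Dotted lines mark the 95th percentile of negative control spots, 4.32 units on CSE-WT and 3.43 on CSE-KO. Cdk6 lies near these lines. Probe 2 of Cdkn2a lies near the line on CSE-KO but above it on CSE-WT, at 7.81 units. In most other pairs the symbols nearly coincide. Levels of different probes are not comparable.

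Among the cyclins, Ccnd2, the D-type cyclin known for its part in mouse beta-cell growth, gave 57196 intensity units in CSE-WT and 52684 in CSE-KO. The CSE-KO value was the lower of the pair, by 1.13-fold (difference -0.17, spot SD 0.06), just under 3 times the spot SD. Its level lay above that of the brightest bin of repeated probes, so the spot SD of that bin was used. Of the 508 measured probes within 0.5 log2 units of the Ccnd2 level, 13.0% differed by at least as much. Its probe lies on the minus strand of chromosome 6, positions 127098696 to 127098755 (mm9). In bulk samples, a lower share of the cells that express a gene and less RNA per cell cannot be told apart, here or in any result that follows.

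Ccnd1, a D-type cyclin that links growth factor signals to the cycle, gave 13896 units on CSE-WT and 15714 on CSE-KO. The CSE-KO array was higher by 1.09-fold (difference 0.12, spot SD 0.05), and 38.2% of the probes at its level differed by at least as much. Its probe is on chromosome 7, positions 152116202 to 152116261, on the minus strand. Ccnd3, the third D-type cyclin, had a pair of probes on chromosome 17 that pointed in opposite directions. The probe at positions 47736579 to 47736638 gave 8772 units on CSE-WT and 8619 on CSE-KO, a difference of -0.08. The probe at positions 47736267 to 47736326 gave 3846 and 4316 units, a difference of 0.11. The D-type cyclins thus showed no common direction, and none passed 3 times the spot SD.

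Ccne1 encodes cyclin E1, which partners CDK2 at the entry into S phase, and both of its probes on chromosome 7 were higher in CSE-KO. The brighter probe gave 1027 units on CSE-WT and 1167 on CSE-KO, a difference of 0.13 (spot SD 0.08). The dimmer probe, at positions 38885574 to 38885633, gave 42.5 and 57.1 units, a difference of 0.37 with a spot SD of 0.29. Neither difference passed 3 times the spot SD. The files place only 24 bases of the brighter probe on the genome, at positions 38882937 to 38882960.

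For the kinases, Cdk4 was read by 3 probes and Cdk6 by 1. The brightest Cdk4 probe (chromosome 10, positions 126504174 to 126504233) gave 23019 units on CSE-WT and 27370 on CSE-KO, a difference of 0.19 or 1.14-fold, at 3.39 times the spot SD. The other probes gave 10768 units on CSE-WT against 10823 on CSE-KO, and 3756 against 4039, differences of -0.05 and 0.05. So the pass of Cdk4 under the spot rule rested on a single probe. Spot differences were also taken after removal of the median difference of spots at the same level. On that measure the 6 spots adjacent to that probe had a median of 0.17, against -0.06 and -0.04 beside the other Cdk4 probes. It is not the scaled difference used elsewhere, and the part of these neighbours in the probe's value was not tested. Over all 1204 genes with 3 measured probes the median range between probes was 0.27, and for Cdk4 it was 0.24.

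Cdk6, the other kinase partner of D-type cyclins, was not detected above background in either sample. Its probe (chromosome 5, positions 3522106 to 3522165) gave 4.12 units on CSE-WT and 3.32 on CSE-KO. Of the 308 negative control spots, 62 on CSE-WT and 38 on CSE-KO were at least as bright. No fold is given for it.

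**Figure D2:**
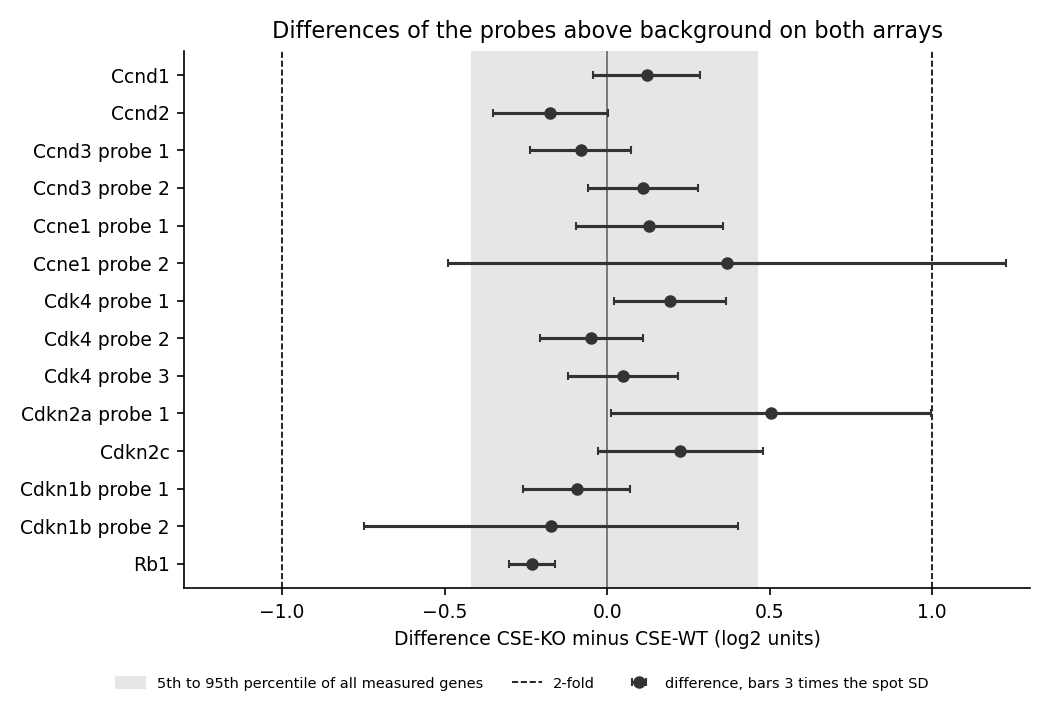
Difference CSE-KO minus CSE-WT in log2 units for the 14 probes above background on both arrays; bars are 3 times the spot SD of the difference and cover spot noise only. The grey band is the 5th to 95th percentile of all measured genes (-0.41 to 0.46) and dashed lines mark 2-fold; only Cdkn2a lies outside the band, and the bars of Cdk4 probe 1, Cdkn2a probe 1 and Rb1 do not reach 0.

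Cdkn2a showed the largest difference of the measured members, on a dim probe. The gene encodes p16Ink4a, an inhibitor of CDK4 and CDK6, and from a separate promoter p19Arf, which stabilises p53. Its brighter probe (chromosome 4, minus strand, positions 88920405 to 88920464) gave 126 units on CSE-WT and 186 on CSE-KO, a difference of 0.51 at 3.08 times the spot SD of 0.16. Of the 3602 probes at that level, 9.63% differed by at least as much. Its other probe, at positions 88920543 to 88920602, failed the detection rule in both samples, with 7.81 units on CSE-WT and 3.36 on CSE-KO. Of the 308 negative controls, 10 on CSE-WT and 28 on CSE-KO were as bright. The files list transcripts of both products for both probes, so p16Ink4a and p19Arf could not be told apart.

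The RefSeq promoter table (GRCm38.p6) holds 7 of the 10 genes, Ccnd3, Ccne1, Cdk4, Cdk6, Cdkn1b, Cdkn2a and Cdkn2c, with 10 windows of 250 bases before to 50 after a transcription start. They were searched on both strands for an E2F motif in 4 forms, TTTCCCGC, TTTGGCGC, TTTCGCGC and TTTGCCGC. A match was found in 1 window, a promoter of Cdkn2a, and in 2.26% of all 32851 windows in the table. The 250 bases before both Cdkn2a starts are printed because the probes cannot separate their transcripts. Capitals mark the match, whose first base lies 99 bases before the start and which no other of these forms overlaps.
Cdkn2a, upstream start, chr4:89294620-89294869, minus strand: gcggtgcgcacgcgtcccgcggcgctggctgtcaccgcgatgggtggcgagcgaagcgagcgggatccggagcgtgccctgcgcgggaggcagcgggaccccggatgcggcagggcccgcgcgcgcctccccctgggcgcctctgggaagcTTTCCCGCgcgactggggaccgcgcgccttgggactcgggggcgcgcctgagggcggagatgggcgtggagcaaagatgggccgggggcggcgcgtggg
Cdkn2a, downstream start, chr4:89282193-89282442, minus strand: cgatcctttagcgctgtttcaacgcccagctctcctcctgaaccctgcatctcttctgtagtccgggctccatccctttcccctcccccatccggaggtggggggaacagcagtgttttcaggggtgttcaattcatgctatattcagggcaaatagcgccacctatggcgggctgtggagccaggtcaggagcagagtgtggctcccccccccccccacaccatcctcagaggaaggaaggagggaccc
The 300-base window of the upstream start holds 45 CG dinucleotides and that of the downstream start 12. A match describes these letters only, and its use in these cells was not measured.

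Cdkn2b, a further INK4 inhibitor and the next protein-coding gene to Cdkn2a in the RefSeq annotation, gave 1441 units on CSE-WT and 1518 on CSE-KO by its brighter probe. The difference was 0.02, and its dimmer probe gave 0.27. The sign of the brighter probe turned with another scaling (-0.0039 to 0.05).

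Cdkn2c encodes p18, an INK4 inhibitor that binds CDK4 and CDK6. Its probe (chromosome 4, positions 109333508 to 109333567) gave 460 units on CSE-WT and 558 on CSE-KO, a difference of 0.22 or 1.17-fold, at 2.65 times the spot SD. Of the 3312 probes at that level 23.6% differed by at least as much.

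Cdkn1b encodes p27, the CIP/KIP inhibitor that restrains cyclin E with CDK2. Both of its probes on chromosome 6 were slightly lower in CSE-KO. The brighter one (positions 134875424 to 134875483) gave 5081 units on CSE-WT and 4951 on CSE-KO, a difference of -0.09. The dimmer one (positions 134873606 to 134873665) gave 113 and 104 units, a difference of -0.17. Neither passed 3 times the spot SD. The INK4 genes Cdkn2a and Cdkn2c and the CIP/KIP gene Cdkn1b were thus on opposite sides of 0. Only the difference of Cdkn2a passed the spot rule, and not under every correction. The families as a whole did not divide in this way. Of the 7 inhibitor genes of both, 4 were higher and 3 lower, with a median of 0.02.

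Rb1, the pocket protein that holds E2F in check, was the member measured most precisely, because its probe was printed 10 times on each array. The probe lies on the minus strand of chromosome 14, positions 73595408 to 73595467. Its 10 spots ranged from 1027 to 1184 units on CSE-WT, with a median of 1105, and from 923 to 1015 on CSE-KO, with a median of 975. The highest CSE-KO spot was below the lowest CSE-WT spot, and all 10 spots were lower in CSE-KO after scaling, by -0.29 to -0.18. The mean difference was -0.23 ± 0.04 (SD over 10 spots of 1 array pair), or 1.17-fold. Such a separation was common. Of the 285 measured probes printed 10 times, 82 (28.8%) had spots that did not overlap between the arrays, and 24.2% differed by at least as much as Rb1. The spots share their RNA, so they are no replicates of the genotype.

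**Figure D3:**
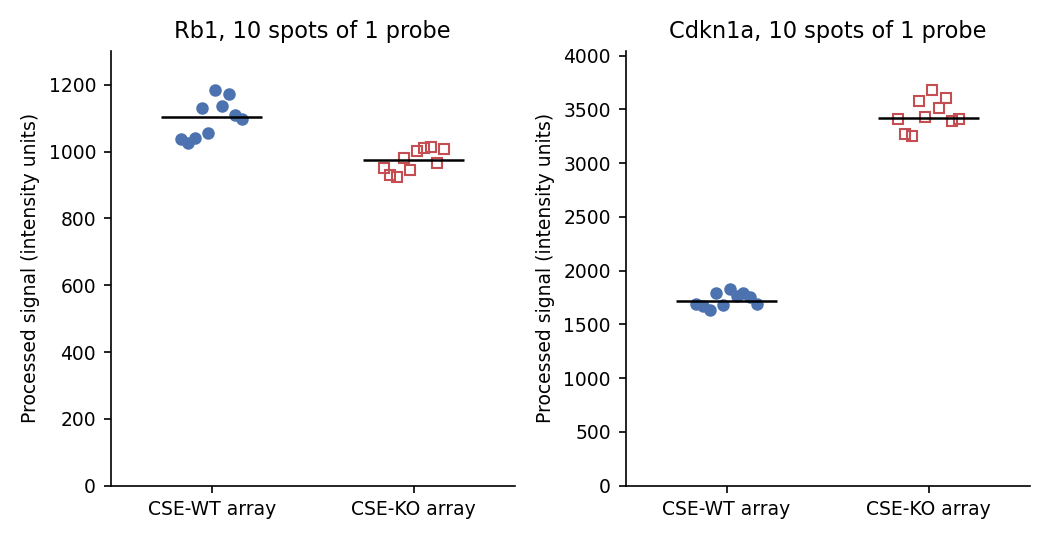
Processed signal in intensity units of the 10 spots of the Rb1 probe and of the Cdkn1a probe on the CSE-WT array (filled circles) and the CSE-KO array (open squares); horizontal lines are medians. The Rb1 spots separate narrowly (1027 to 1184 against 923 to 1015 units), those of Cdkn1a widely (1637 to 1825 against 3250 to 3678 units).

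The other genes of the G1/S transition were mixed, and Ccna2, Cdkn1a and E2f1 differed more than any of the 9 measured G1 genes. Of 28 listed genes 25 were measured, 15 higher and 10 lower in CSE-KO, with a median difference of 0.02. Past 3 times the spot SD were 7 higher genes and 0 lower ones, against 7.78% higher and 8.82% lower over all measured genes. Cdkn1a, the gene of the CIP/KIP inhibitor p21, had 10 spots between 1637 and 1825 units on CSE-WT and between 3250 and 3678 on CSE-KO, a difference of 0.94. Cdkn1c, the gene of the CIP/KIP inhibitor p57, was at 151 units on CSE-WT and 117 on CSE-KO, a difference of -0.42 that did not pass 3 times the spot SD. The 3 CIP/KIP genes therefore had differences of 0.94, -0.42 and, for Cdkn1b, -0.09. Cdkn2d, an INK4 gene, differed by -0.03, a sign that turned under another scaling.

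Among the pocket proteins, the relatives of Rb1 went the other way from it. Rbl1 gave 243 units on CSE-WT and 334 on CSE-KO, a difference of 0.40, and Rbl2 gave 208 and 276 units, a difference of 0.35. Both differences exceeded the spot rule, at 4.11 and 3.16 times the spot SD. The dimmer Rbl1 probe differed by 0.24, with a spot SD of 0.39. For genes outside the members the spot rule was not recomputed under the other corrections. The activating E2F genes E2f1 (0.55) and E2f2 (0.29) passed it as higher, and E2f3 (-0.25) did not pass it. Cks1b, a cyclin-dependent kinase subunit that aids the destruction of p27, was higher by 0.41. Skp2, the receptor of the ubiquitin ligase that targets p27, differed by 0.27 and E2f5 by -0.21, both within 3 times the spot SD, the latter in a local patch of the slide that was brighter on CSE-WT.

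Cdk2, the kinase partner of cyclin E, was dim, with 29.6 units on CSE-WT and 34.1 on CSE-KO. Its difference of 0.15 was under its spot SD of 0.39, its probe lay in such a patch, and its sign turned under another scaling. The second cyclin E gene, Ccne2, was not detected above background in either sample (11.1 and 6.39 units). E2f8, a repressing E2F, was above background on CSE-KO only, with 18.2 units on CSE-WT and 54.5 on CSE-KO. Its probe differed by 1.53, with a spot SD of 0.47. E2f8 does not count as measured, and no lower bound of its fold is given.

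E2F target and S-phase genes were higher in CSE-KO in nearly every case, whereas the G1 regulators lay on both sides of 0. Of 18 listed genes 17 were measured and 16 were higher, with a median difference of 0.42. Over all measured genes 48.7% were higher, 7.78% passed the spot rule as higher and 0.718% the 2-fold rule as higher. The list was chosen with earlier results of these data known. Of its measured genes, 13 passed the spot rule and 6 the 2-fold rule, all of them higher by the brightest probe. Among these, the mitotic kinase gene Cdk1, named after its values were seen, had probes that disagreed. Its brightest probe gave 79.6 units on CSE-WT and 178 on CSE-KO, a difference of 1.11, and its other measured probe gave 109 and 22.7 units, a difference of -2.32. Both differences passed both size rules, in opposite directions, so Cdk1 has no settled direction here. The other genes of the list with several measured probes, Mcm3 and Mki67, had all probes higher. The lower gene among the 17 was the thymidylate synthase gene Tyms (-0.02), named after its value was seen, whose sign turned under another scaling. The largest differences were in the proliferation marker Mki67 (1.43), cyclin A2 (Ccna2, 1.29, also counted among the G1/S genes), topoisomerase Top2a (1.17) and the replication helicase subunit Mcm5 (1.16). Most were dim. By their lowest values under another scaling or background correction, Mki67 (1.22) and Mcm5 (1.03) stayed past 2-fold. Ccna2 (0.99), Top2a (0.83), Tk1 (0.73, against 1.12 as reported) and Cdk1 (0.68) fell below it. The number of listed genes past 2-fold thus depended on the processing. The 6 members of this list above the median level of all genes were all higher, with a median of 0.34 and none past 2-fold. By comparison, the 7 G1 genes above that level had a median of -0.08, with 3 higher and 4 lower. The difference between the lists was not tested.

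**Figure D4:**
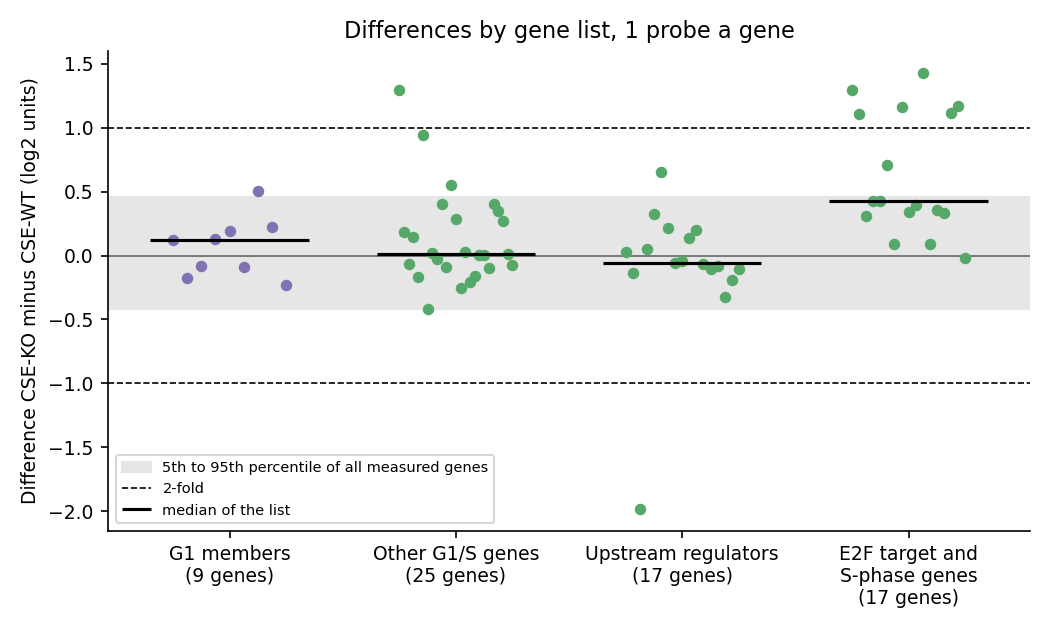
Difference CSE-KO minus CSE-WT in log2 units, 1 point per measured gene, for the G1 genes (9), other G1/S genes (25), upstream regulators (17) and E2F target and S-phase genes (17); black bars are list medians (0.12, 0.02, -0.06 and 0.42), the grey band is the 5th to 95th percentile of all measured genes and dashed lines mark 2-fold. Ccna2 is plotted in 2 lists.

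Upstream regulators known in islets showed no common shift. Of 18 listed genes 17 were measured, 7 higher and 10 lower, with a median of -0.06. Cish, a feedback inhibitor of the STAT5 signalling that induces Ccnd2 in beta cells, gave 3563 units on CSE-WT and 938 on CSE-KO, a difference of -1.98. The prolactin receptor gene Prlr (-0.10) and the STAT5 genes Stat5a (-0.19) and Stat5b (-0.11), looked up after the value of Cish was seen, were within 3 times the spot SD, and a second Stat5b probe gave 0.07. Foxm1, a transcription factor of the dividing cell, was higher by 0.65 and Foxo1, which promotes Cdkn1b transcription, by 0.21, both past 3 times the spot SD, although the other Foxo1 probe differed by 0.07. Ezh2, a polycomb enzyme that represses Cdkn2a, differed by 0.33, Myc by 0.20 and Smad3 by -0.33, all within 3 times the spot SD. A pair of regulators was singled out after their values had been seen. Bmi1, a polycomb repressor of Cdkn2a, differed by -0.14 by its brighter probe and by -0.38 by its other one. Men1, which encodes the menin protein that promotes transcription of Cdkn1b and Cdkn2c, differed by 0.14.

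RNA of other cell types was present in both samples. Probes above background numbered 31718 (57.0%) on CSE-WT and 33178 (59.6%) on CSE-KO. Cth, the gene of CSE, had 2 probes that failed the detection rule in both samples, at 13.5 and 12.8 units on CSE-WT and 3.15 and 3.68 on CSE-KO. Of the 308 negative controls, 9 and 9 on CSE-WT and 129 and 9 on CSE-KO were at least as bright. Since both Cth probes failed detection on both arrays, they do not check the genotype labels. Their place relative to the deleted part is also not given. All 10 beta-cell markers were measured, 4 higher and 6 lower in CSE-KO, with a median of -0.09. All 6 alpha-cell markers were measured too and lower (median -0.50, summed signal 596800 units on CSE-WT and 549544 on CSE-KO). Macrophage markers were higher in 7 of 8 genes (median 0.35, summed signal 24721 and 32497 units), and stellate and fibroblast markers in 5 of 5 measured (median 0.84, summed signal 1374 and 2106 units). Acinar markers were at a median of -0.03 over 8 genes, with 4 higher and 4 lower, of which 2 and 2 passed the spot rule. Their summed signal was 423973 units on CSE-WT and 412184 on CSE-KO. All summed signals are unscaled and weigh bright probes most. Endothelial markers had a median of 0.09 over 5 genes, delta-cell markers -0.05 over 3, duct markers -0.26 over 3 of 5, lymphocyte markers -0.01 over 4 of 6 and erythroid markers -0.54 over 3. The duct genes Sox9 and Cftr and the lymphocyte gene Cd3g were at background in both samples. These marker differences lay between the same 2 arrays as those of the E2F target genes and of Cdkn2a, and their part in the latter was not tested.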

How the data were processed

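The authors deposited 1 Agilent Feature Extraction file per array, with a background-adjusted, spatially detrended intensity for each spot, per the file headers (version 10.7.1.1; the submitters' processing notes name 9.5.1.1). Both arrays lay on 1 slide and share 1 scan. Spots flagged as outliers were left out (139 and 169 of 59305 gene spots, none of a member), and no spot was saturated. Spots of a probe were averaged as log2 intensity, and the 75th percentile of each array was subtracted (519 units on CSE-WT, 540 on CSE-KO). A probe counted as measured when well above background on both arrays, and the brightest measured probe, by mean level, stood for a gene. Of the probes, 27229 were named by accession through RefSeq names, 3586 by symbol, 565 by an older symbol and 24301 by the name in the file. The members were taken by the name in the file.

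Spot SD came from 399 probes printed 10 times, pooled in 20 level bins, and for a difference at the median level it was 0.08 log2 units. Spot differences were centred and divided by the robust SD at their level, and a spot lay in a patch when the median of its 6 neighbours on that scale was more than 3 robust SDs of such medians away from the centre. No member spot did, whereas 105 of the 197 genes at least 2-fold lower did and 5 of the 159 higher ones. The members and lists were chosen with earlier results of these data known. All 10 members were named, with fixed subsets of the other lists and their largest differences. Alternatives used limma 3.58.1 in R 4.3.3, with normexp at an offset of 50. The authors also deposited a table of normalized linear intensities (median 37.7 in both columns), whose exact steps are unknown.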

Additional observations from a re-analysis of the deposited data

How the results depend on the processing

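The alternatives were median, quantile and cyclic loess scaling, normexp background correction (with the 75th percentile or quantile scaling), the authors' deposited table, no filter on dim probes, other choices of probe, and leaving out patches. No paired analysis was possible because each genotype had 1 array. No member reached 2-fold under any of them. The sign of Ccnd1, Ccnd2, Ccne1, Cdkn2a, Cdkn1b, Cdkn2c and Rb1 held under all of them. The ranges were 0.05 to 0.16, -0.17 to -0.05, 0.10 to 0.37, 0.37 to 0.54, -0.17 to -0.03, 0.12 to 0.26 and -0.23 to -0.20 in that order. Ccnd1, Ccnd2, Cdkn2a, Cdkn2c and Rb1 had 1 measured probe each, so other choices of probe could not change their values. No member spot lay in a patch, so leaving out patches could not change any member. Without the filter the brightest probe still stood for a gene, so the second Cdkn2a probe, which failed the detection rule, did not enter. Of the members, 3 passed 3 times the spot SD as reported, 1 (Rb1) under both normexp settings with the spot SD recomputed, and 2 to 4 under the other scalings. Cdk4 turned to -0.048 by its second probe, and Ccnd3 to 0.11 by its second probe and 0.015 by the mean of its probes. The median over members, 0.12 as reported, was 0.050 under normexp, 0.063 under normexp with quantile scaling and 0.020 without the filter, which adds Cdk6 at the background. The median of E2F target genes was 0.31 under both normexp settings. The alternatives for this median and for the spot rule were chosen after seeing the data. Genes past 2-fold numbered 159 higher and 197 lower as reported. Under normexp these were 36 and 97, with quantile scaling 38 and 96, without the filter 1128 and 1436, and outside patches 92 were lower. Of the 16 member probes, 14 were measured and the rest, among them the only Cdk6 probe, failed the detection rule in both samples.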

Other observations

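The median negative control was 3.86 units on CSE-WT and 3.11 on CSE-KO. In the authors' deposited table, Cdk6, at background on both arrays, was listed at 3.73 units on CSE-WT and 3.71 on CSE-KO. In the authors' deposited table, the brighter Cdkn2a probe differed by 0.52. For genes with 2 measured probes the median range between probes was 0.15 over 4463 genes, and it was 0.19 for Ccnd3, 0.24 for Ccne1 and 0.08 for Cdkn1b.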
